A study of Homo sapiens with 13 samples.

Results

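The 36 genes described here encode the core machinery of autophagy and 2 major proteins of the lysosomal membrane. They were taken by symbol from a list that uses no measured value as a rule, and all 36 were found in both deposited tables, which hold 24875 symbols for the Silvestrol experiment and 13121 for the INK128 experiment. By current symbol, 34 members are found in the Silvestrol data, whereas ATG13 and ATG14 stand there under the older symbols KIAA0652 and KIAA0831 and were matched by RefSeq accession. By role they comprise 4 genes of the ULK complex, 6 of the class III PI3K complex, 5 for membrane supply and PI3P binding, 10 of the conjugation machinery, 4 ATG8 proteins, 3 receptors, 2 transcription factors and 2 lysosomal membrane glycoproteins.

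Ribosome footprints (RFs) and RNA were sequenced from MDA-MB-231 cells, a human breast carcinoma line of mesenchymal character, given vehicle (DMSO) or drug in fresh medium. Silvestrol (25 nM) inhibits the RNA helicase eIF4A, and its experiment has 7 RF libraries (untreated cells, DMSO and Silvestrol for 1 h at passage 3, DMSO and Silvestrol for 2 h at passages 3 and 4) and 2 mRNA libraries (DMSO and Silvestrol for 2 h, passage 3). INK128 (200 nM) inhibits the kinase mTOR, and its experiment has 4 libraries, 1 each of RFs and total RNA with DMSO and with INK128 for 2 h at passage 3. Only RFs at 2 h of Silvestrol are replicated, by the 2 passages, so no other ratio has a replicate check. Markers of the line were checked in the control RFs. The mean level of VIM, a mesenchymal marker, was 6290 RPKM (reads scaled to library total and to the length over which they were counted). ESR1 was at 0 and CDH1 at 0.0295 RPKM. GATA3 (7.72 RPKM) and EPCAM (4.98 RPKM), markers of luminal cells, were low. Counted reads ranged from 2.65 M (M, mega; Silvestrol, 2 h, passage 4) to 50.3 M (DMSO mRNA), and the other RF libraries held 6.45 to 31.2 M, so passage 4 carries the least precise values. Of 2 libraries the labels disagree within themselves, on the time (1 h or 2 h) of Silvestrol RFs at passage 3 and on whether the control mRNA had DMSO or nothing. Titles decided, and every mRNA and TE value with Silvestrol rests on that mRNA being from DMSO cells.

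Autophagy encloses cytoplasm in a double membrane and delivers it to the lysosome. The ULK kinase complex starts the process, a class III PI3K complex marks the membrane with PI3P, WIPI and ATG2 proteins bring in lipid, and a ubiquitin-like conjugation system attaches ATG8 proteins to the growing membrane, where receptors such as p62 bind. In fed cells mTOR phosphorylates ULK1 and ATG13 and holds the transcription factors TFEB and TFE3 in the cytoplasm, which would otherwise bind E-boxes of the CLEAR type in promoters of lysosomal genes.

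The hexamer CACGTG, the core of that CLEAR element, is shown for the 3 members whose promoters hold it, since TFEB and TFE3 recognise such letters. RefSeq promoters (GRCh38.p14, 250 bases before to 50 after the start) were matched for 32 members. CACGTG, which reads the same on both strands, occurred in 3 of them (9.38%), against 8.77% of 27305 promoters, and the full element, CACGTG with GT before and AC after it, in 0 of 32 against 0.421%. The capitals mark the hexamer, and each window is 28 bases, 5′ to 3′ on the strand of the gene. The LAMP1 promoter held the hexamer at 6 places, of which the match 28 bases before the start is shown, and that of ATG3 at 2, of which the match 18 bases before the start is shown. These letters describe the promoters and do not show binding.
ATG3, chr3:112561964-112561991, minus strand: ctttctcacgtCACGTGccgggagagtc
ATG14, chr14:55411835-55411862, minus strand: aaacaaaatccCACGTGactggctctcc
LAMP1, chr13:113297200-113297227, plus strand: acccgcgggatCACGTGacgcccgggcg

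Footprints of the tested members spanned more than 2 orders of magnitude in control cells. Over the 4 control RF libraries (untreated, DMSO for 1 h, and DMSO for 2 h at both passages) the highest level was that of SQSTM1, the receptor p62, at 773 ± 101 RPKM (SD, n = 4). GABARAP followed at 443 ± 22.4 RPKM and GABARAPL2 at 177 ± 29.8 RPKM, both members of the ATG8 family. The next levels, of the conjugating enzyme ATG3 (106 ± 7.14 RPKM) and the receptors OPTN (102 ± 16.2 RPKM) and NBR1 (99.9 ± 6.32 RPKM), did not differ beyond their spread. The kinase ULK2 had the lowest level of the genes tested, 1.90 ± 0.207 RPKM, below ATG10 (5.14 ± 0.972 RPKM) and ULK1 (5.85 ± 1.25 RPKM), which were within their spread of each other. Translational efficiency (TE), the ratio of RF to mRNA RPKM, ranged in DMSO cells of passage 3 from 0.378 for the protease ATG4D and 0.381 for the lipid scramblase ATG9A to 5.26 for ATG12 and 5.63 for ATG5. RF and mRNA reads were counted over different lengths, for ULK2 4.15 and 11.5 kb in these cells, so the level of TE depends on both. MAP1LC3B, the most used marker of autophagosomes, could not be followed in the Silvestrol table. Its RF libraries held 0 to 4 reads each, although 2131 reads were counted in DMSO mRNA, and it was the only member that the filter on low values removed. Where RF reads were present they were counted over 0.055 to 0.069 kb, against 1.555 kb in DMSO mRNA and an annotated coding sequence of 375 nt. The number of RF reads thus does not measure its translation.

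Silvestrol for 2 h lowered the footprints of the initiation genes ATG13 and BECN1. Of the 35 members tested among 10594 genes, these 2 were lower and 0 were higher in the quasi-likelihood test of edgeR (threshold 0.05, p-values adjusted after Benjamini and Hochberg), against 7.49% of all genes lower and 2.06% higher. The unadjusted edgeR p was under 0.05 for 11 of the 35 members, against 3267 of 10594 genes. DESeq2 called 3 members, adding WIPI2, against 1555 of all genes. Leaving out either Silvestrol library ended both calls (0 of all genes were then called), and without the DMSO library of passage 3 that of BECN1 was lost. With passage as a block 12 members were lower and 10 were higher, against 28.0% and 24.7% of all genes, and 13 were in neither. The blocked fit has 1 residual degree of freedom, and its p-values rest on a spread pooled over all genes in place of each gene's own. The shares of members in either direction were near those of all genes. With the block the 4 genes of the ULK complex were all lower, and 3 of 5 membrane genes were lower and 0 higher. Of the genes tested, 2 of 3 ATG8 proteins, 2 of 3 receptors and 2 of 2 LAMP genes were higher and 0 lower. When the counted length of each gene in each library was taken into account, these became 0 of 3, 2 of 3 and 2 of 2. The class III PI3K complex (1 lower, 2 higher of 6) and the conjugation machinery (4 lower, 2 higher of 10) were mixed. These counts by role are small and carry no test. The transcription factors had 0 calls. The median log2 RF change was −0.10 over the members, −0.04 without TFEB (whose entries were exchanged between libraries, as given below with its values) and −0.02 over all genes in the edgeR fit. RPKM ratios lie lower by their scaling, with all-gene medians of −0.17 and −0.15 in passages 3 and 4 at 2 h and −0.18 at 1 h. Such values are relative to the footprints of a library, so an equal loss from all genes would not show in them.

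**Figure D1:**
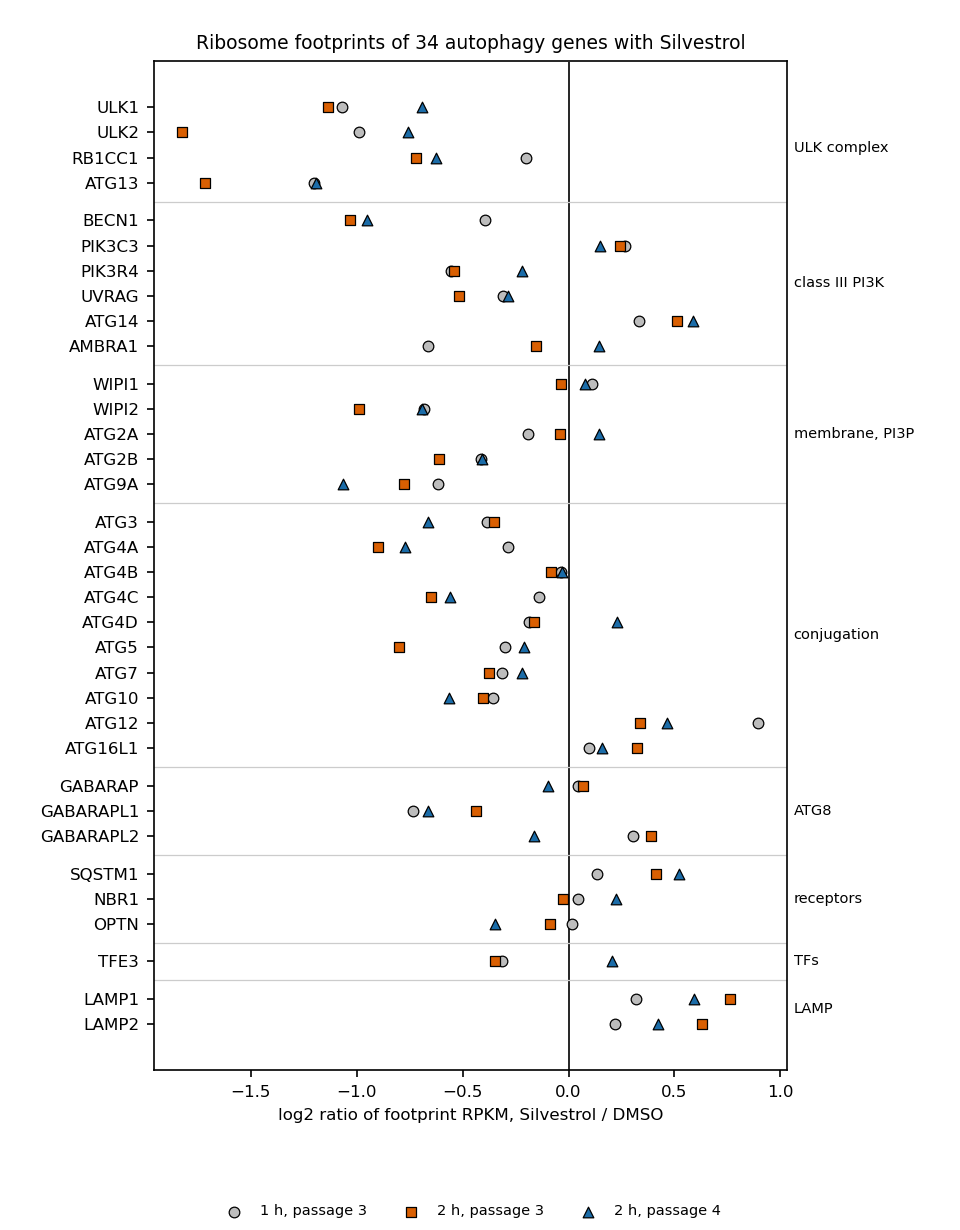
Log2 ratio of footprint RPKM (Silvestrol over DMSO, x axis) for 34 members in rows grouped by role, with 1 point each for 1 h at passage 3 (circle), 2 h at passage 3 (square) and 2 h at passage 4 (triangle). ULK1, ULK2, RB1CC1 and ATG13 lie below 0 in each comparison and ATG12, ATG14, SQSTM1, LAMP1 and LAMP2 above 0. MAP1LC3B, which was not tested, and TFEB, whose entries changed between libraries, are left out.

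In the ULK complex ATG13 and ULK2 had the lowest log2 RF changes of the members, while BECN1 (−0.87) was below ULK1 (−0.82), and ATG9A, WIPI2 and ATG4A were below RB1CC1. ATG13 (chr11:46638825-46697568 in the INK128 table, for which the submitters' notes name hg19), the adaptor that tethers the kinase to its scaffold, had 27.3 RPKM in untreated cells, 28.2 with DMSO at 1 h, and 29.0 and 33.0 with DMSO at 2 h in passages 3 and 4. With Silvestrol it had 12.3 RPKM at 1 h, and 8.83 and 14.4 at 2 h, so each Silvestrol library lay below each control library. This was 43.5% of DMSO at 1 h, and 30.5% and 43.7% at 2 h (log2 change −1.33 ± 0.25 SE, edgeR adjusted p = 0.039, and 1.0e-17 with the block). Here and below, log2 RF changes at 2 h and their SEs come from the fit without the block unless stated. ATG13 mRNA was 23.0 RPKM with DMSO and 24.6 with Silvestrol. Its TE z-score, which places the log2 change in TE of passage 3 among all genes, was −1.51.

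ULK1 (chr12:132379278-132407707), the kinase that phosphorylates most of the early machinery, had 6.51 RPKM in untreated cells, 6.93 with DMSO at 1 h, and 5.88 and 4.09 with DMSO at 2 h. Silvestrol libraries held 3.30 RPKM at 1 h, and 2.67 and 2.53 at 2 h, and the groups did not overlap. Its log2 change was −0.82 ± 0.30 SE, with an edgeR adjusted p = 0.14 without and 0.00011 with the block, and was −0.47 without the DMSO library of passage 3. For ULK2 (chr17:19674142-19771239), a kinase closely related to ULK1, control libraries had 1.98, 1.59, 2.00 and 2.01 RPKM in the same order, against 0.799 RPKM at 1 h and 0.564 and 1.19 RPKM at 2 h with Silvestrol. These rest on 30 and 13 reads in the Silvestrol libraries at 2 h. The log2 change of ULK2 was −1.22 ± 0.42 SE (edgeR adjusted p = 0.12, 6.3e-05 with the block) and −0.70 without the Silvestrol library of passage 3, and its z-score of −1.61 was the lowest of the members. RB1CC1, the scaffold FIP200, had 11.1, 8.58, 9.25 and 9.71 RPKM in the controls and 7.45, 5.61 and 6.29 RPKM with Silvestrol. Its mRNA was 5.51 RPKM with DMSO and 8.30 with Silvestrol, so RFs and mRNA moved apart, and its log2 RF change was −0.55 ± 0.17 SE (edgeR adjusted p = 0.094, 0.00036 with the block).

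In the class III PI3K complex BECN1 and ATG14, which bind each other, had changes of opposite sign. BECN1 (chr17:40962149-40976310), the regulatory subunit Beclin 1, had 61.9 RPKM in untreated cells, 58.8 with DMSO at 1 h, and 62.2 and 60.8 with DMSO at 2 h. Silvestrol gave 44.8 RPKM at 1 h, and 30.4 and 31.4 at 2 h. The passages at 2 h were thus close within each treatment, at 48.9% and 51.6% of DMSO (log2 change −0.87 ± 0.15 SE, edgeR adjusted p = 0.034), and BECN1 mRNA was 31.0 RPKM with DMSO and 41.0 with Silvestrol. ATG14, which directs the complex to autophagosome formation, had 13.7, 12.2, 13.4 and 13.3 RPKM in the controls, against 15.4 RPKM at 1 h and 19.1 and 20.1 RPKM at 2 h with Silvestrol. All Silvestrol libraries were above the controls, with a log2 change of 0.67 ± 0.17 SE (edgeR adjusted p = 0.067, 8.2e-05 with the block). The lipid kinase PIK3C3 was higher with the block (0.31 ± 0.13 SE, edgeR adjusted p = 0.18, 0.0041 with the block). PIK3R4, UVRAG and AMBRA1 passed in neither fit, with log2 changes of −0.27, −0.28 and 0.10.

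**Figure D2:**
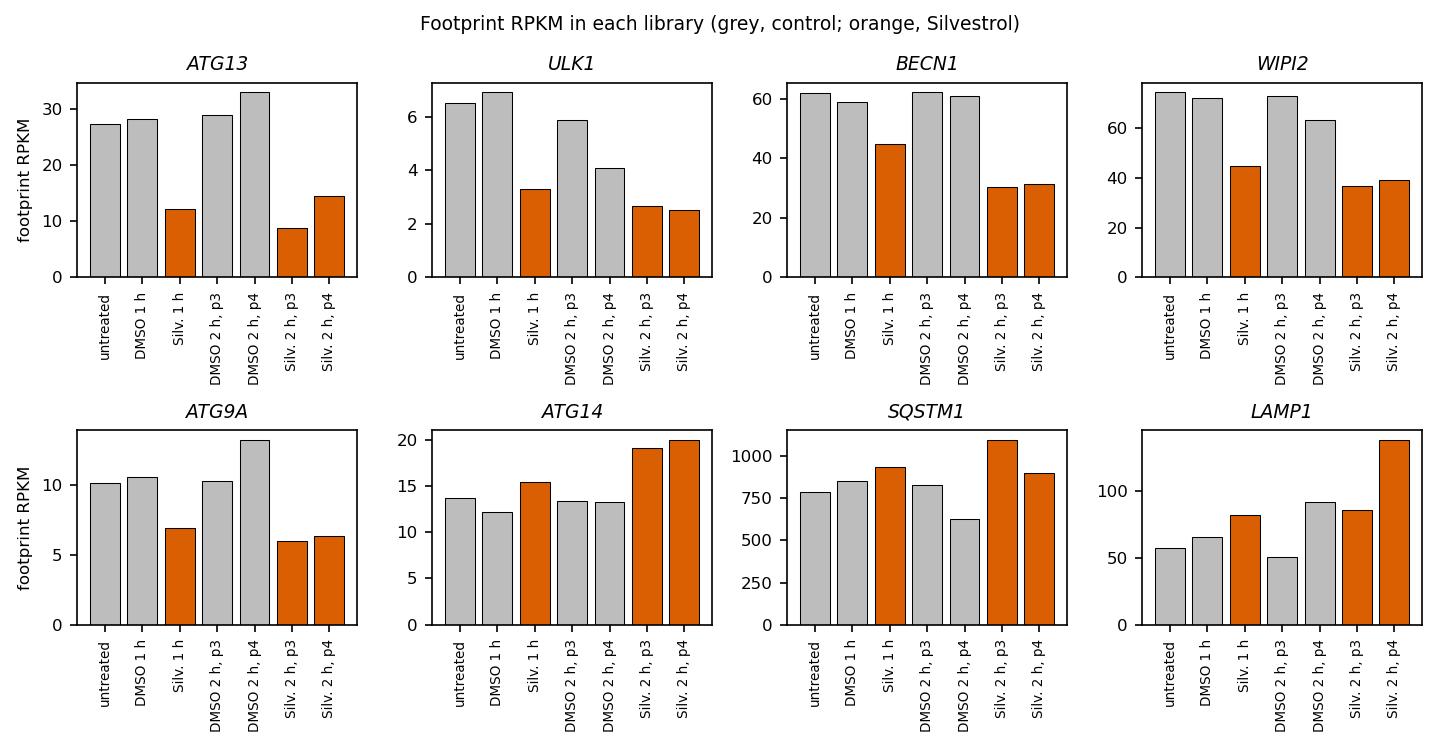
Footprint RPKM (y axis, from 0) of 8 members in the 7 RF libraries, with 1 bar for each library, controls in grey and Silvestrol in orange (p3 and p4, passages 3 and 4). BECN1 stands near 60 in the controls against 30.4 and 31.4 at 2 h of Silvestrol, whereas LAMP1 is higher with Silvestrol within each passage and higher in passage 4 for both treatments.

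Among the membrane genes WIPI2, ATG9A and ATG2B were lower with the block. WIPI2, the PI3P reader that recruits ATG16L1, had 74.4, 72.2, 72.9 and 63.3 RPKM in the untreated, DMSO 1 h and DMSO 2 h libraries (passages 3 and 4), against 45.0 RPKM at 1 h and 36.7 and 39.2 RPKM at 2 h of Silvestrol. Its log2 change of −0.69 ± 0.16 SE did not pass without the block (edgeR adjusted p = 0.055, 8.0e-08 with the block). WIPI2 mRNA was 33.3 RPKM with DMSO and 23.9 with Silvestrol, and its TE z-score was −0.20. ATG9A, the scramblase of the vesicles that seed the autophagosome, had 10.2, 10.6, 10.3 and 13.3 RPKM in the controls, against 6.92, 5.99 and 6.35 RPKM with Silvestrol. Its log2 change was −0.80 ± 0.20 SE (edgeR adjusted p = 0.063, 1.6e-05 with the block), with mRNA at 27.0 and 19.7 RPKM and a z-score of −0.02. For WIPI2 and ATG9A mRNA was thus lower along with RFs, whereas the mRNA log2 ratio was 0.13 for ULK1, 0.09 for ULK2 and 0.10 for ATG13, and 0.59 for RB1CC1 and 0.40 for BECN1. The lipid transfer protein ATG2B had a log2 change of −0.39 ± 0.18 SE (edgeR adjusted p = 0.20, 0.011 with the block), while its paralog ATG2A (0.17, 0.06 to 0.29 over left-out libraries) and WIPI1 (0.14) passed in neither fit.

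The conjugation machinery split by gene. ATG3, the E2-like enzyme of ATG8 and the most footprinted of these 10 genes, had 115, 101, 98.5 and 107 RPKM in the controls, against 77.6 RPKM at 1 h and 77.3 and 68.0 RPKM at 2 h of Silvestrol. ATG3 mRNA went the other way, from 29.5 RPKM with DMSO to 53.2 with Silvestrol, and the log2 RF change was −0.35 ± 0.15 SE (edgeR adjusted p = 0.19, 0.0092 with the block). The ATG8 protease ATG4A had 9.03, 9.08, 8.48 and 7.88 RPKM in the controls, against 7.43, 4.55 and 4.62 RPKM with Silvestrol (−0.69 ± 0.26 SE, edgeR adjusted p = 0.14, 0.0080 with the block). ATG4C (−0.47) and ATG5 (−0.37) were lower with the block too, each with an mRNA log2 ratio above 0.8. Without the DMSO library of passage 3 the RF change of ATG4C was −0.27, and that of ATG5 was −0.09 without the Silvestrol library of passage 3 and −0.70 without that of passage 4. ATG12, the ubiquitin-like partner of ATG5, had 38.5, 40.3, 45.0 and 38.4 RPKM in the controls and 75.1 RPKM at 1 h of Silvestrol, the highest of its libraries, then 56.8 and 53.0 RPKM at 2 h. Its log2 change was 0.60 ± 0.19 SE (edgeR adjusted p = 0.10, 0.0017 with the block), beside mRNA of 8.56 and 14.5 RPKM and a z-score of −0.11. ATG16L1 was higher with the block (0.37), and ATG4B, ATG4D, ATG7 and ATG10 passed in neither fit, at −0.38 (ATG10, −0.62 to −0.18 over left-out libraries) to 0.13.

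Members higher with the block included ATG8 proteins, receptors and lysosomal glycoproteins. GABARAP had 443, 412, 464 and 454 RPKM in the controls, against 425 RPKM at 1 h and 486 and 425 RPKM at 2 h of Silvestrol, which overlap, while its mRNA was 224 RPKM with DMSO and 154 with Silvestrol. Its read counts passed with the block (0.38 ± 0.16 SE, edgeR adjusted p = 0.18, 0.0067 with the block), and so did those of GABARAPL2 (0.30). Leaving out the Silvestrol library of passage 4 gave 0.25 for GABARAP, and leaving out DMSO of passage 3 or 4 gave 0.09 or 0.54 for GABARAPL2. Both lost the call with the counted length, which left 8 members higher and the same number of 12 lower with the block. GABARAPL1 passed in neither fit (0.01).

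SQSTM1 (chr5:179233387-179265077) had 787, 851, 827 and 627 RPKM in the controls, against 935 RPKM at 1 h and 1100 and 901 RPKM at 2 h of Silvestrol. Each Silvestrol library was above each control, by 1.33-fold and 1.44-fold at 2 h in passages 3 and 4. The log2 change was 0.59 ± 0.21 SE (edgeR adjusted p = 0.13, 2.7e-12 with the block), and 0.37 without the Silvestrol library of passage 3 and 0.38 without DMSO of passage 4, while SQSTM1 mRNA was 305 RPKM with DMSO and 232 with Silvestrol. NBR1, a receptor built like p62, was higher with the block by a small amount (0.22 ± 0.14 SE, 0.35 without DMSO of passage 3 and 0.10 without DMSO of passage 4), and OPTN passed in neither fit (−0.10). LAMP1 (chr13:113951468-113977741), a heavily glycosylated protein of the lysosomal membrane, had 56.9, 65.6, 50.3 and 91.6 RPKM in the controls, against 81.8 RPKM at 1 h and 85.3 and 138 RPKM at 2 h of Silvestrol. The groups overlapped because passage 4 was higher in both treatments, and within a passage the ratios were 1.70-fold and 1.51-fold. LAMP2, whose splice form LAMP2A serves chaperone-mediated autophagy, had 61.6, 61.9, 45.9 and 111 RPKM in the controls, against 72.1, 71.0 and 149 RPKM with Silvestrol, or 1.55-fold and 1.34-fold within the passages. The mRNA of LAMP1 was 101 RPKM with DMSO and 88.4 with Silvestrol, and that of LAMP2 33.0 and 30.0 RPKM. The edgeR adjusted p was 0.19 for LAMP1 and 0.44 for LAMP2, and 7.2e-13 and 8.0e-09 with the block (log2 changes 0.79 ± 0.34 and 0.60 ± 0.48 SE). These log2 changes moved with the library left out, from 0.43 (without DMSO of passage 3 or Silvestrol of passage 4) to 1.23 (without DMSO of passage 4) for LAMP1, and from 0.04 (without Silvestrol of passage 4) to 1.31 (without DMSO of passage 4) for LAMP2, with 0.12 without DMSO and 0.99 without Silvestrol of passage 3.

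The transcription factors passed in neither fit. TFE3 had 54.2, 61.7, 61.7 and 43.2 RPKM in the controls, against 49.6, 48.4 and 49.8 RPKM with Silvestrol, which overlap (0.03 ± 0.22 SE). TFEB has 2 entries in the table, and the lengths behind their counts were exchanged between libraries. The entry used here was counted over 1.82 and 1.97 kb with DMSO and Silvestrol in passage 3, but over 0.402 and 0.413 kb in passage 4, and over 2.91 kb in DMSO mRNA but 0.655 kb in Silvestrol mRNA. Paired by counted length instead, the longer entry had RF log2 ratios of −0.42 at 1 h and −0.73 and −0.23 at 2 h, and an mRNA log2 ratio of −0.70 in place of −1.54. TFEB was therefore left out of the statement on mRNA, and its call in TE is marked where it is given.

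The order of RF ratios was similar in both passages (Spearman's rho 0.79 over 35 members and 0.76 over all genes). At 2 h, 17 of 35 members had both Silvestrol libraries below both DMSO libraries (18 with TFEB taken by its longer entry), against 39.9% of all genes, and 5 had both above (PIK3C3, ATG14, ATG12, ATG16L1 and SQSTM1), against 20.3%. The 1 h ratios share no library with passage 4 at 2 h, and the 2 sets had a rho of 0.69 over the members and 0.67 over all genes. Of the members 2, ATG13 (−1.20) and ULK1 (−1.07), were past −1 on the log2 scale at 1 h and 0 were past 1, against 7.98% and 0.378% of all genes.

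**Figure D3:**
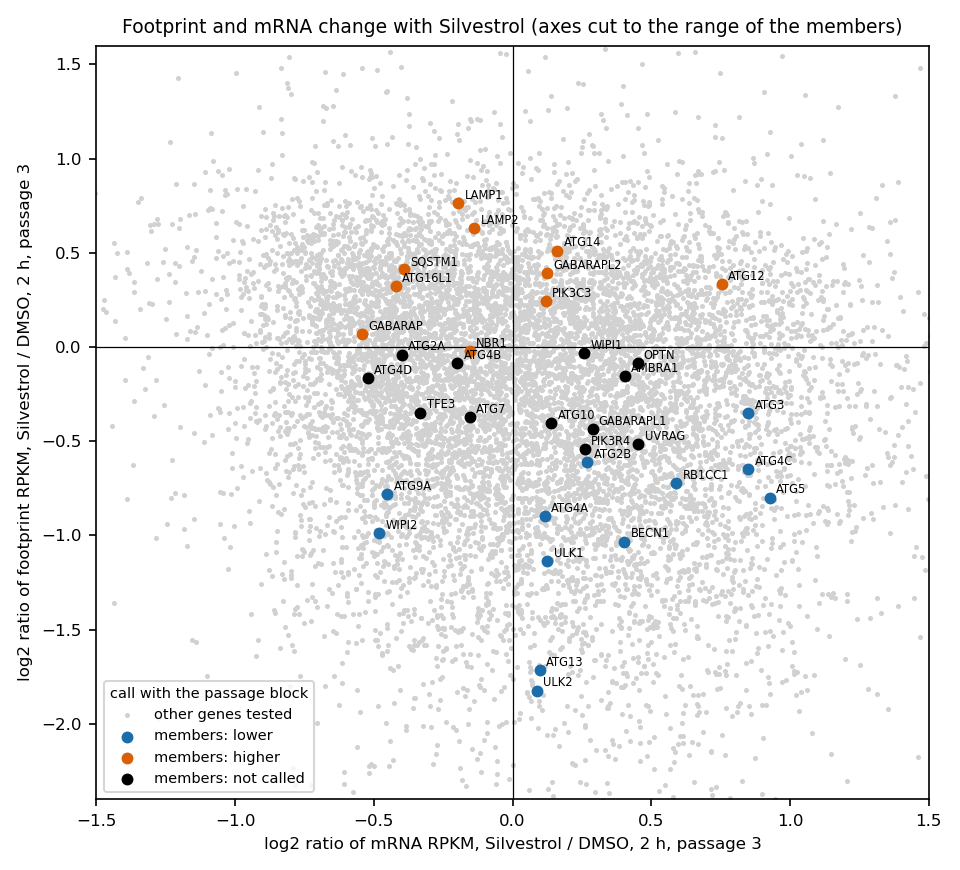
Log2 ratio of footprint RPKM (y axis) against that of mRNA RPKM (x axis), Silvestrol over DMSO at 2 h in passage 3, for all genes tested (grey) and 34 members (blue lower, orange higher and black not called in the test of both passages with the block). ATG3, ATG4C and ATG5 lie at the lower right, with mRNA ratios above 0 and footprint ratios below 0, and SQSTM1, LAMP1, LAMP2 and ATG16L1 at the upper left.

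The mRNA ratios of the members spanned a narrower range than their RF ratios. Leaving out TFEB, 0 members were past 1 on the log2 scale in either direction, against 1.88% of all genes lower and 4.7% higher, and their ratios ran from −0.54 (GABARAP) to 0.93 (ATG5). The TE interaction of the edgeR model over 6 libraries called 0 of 35 members. Its unadjusted p was under 0.05 for 10 members, against 2575 of 10594 genes. The edgeR model called 0.0189% of all genes lower and 0.0% higher. DESeq2 called 0 members too, but 876 of all genes. With the block 9 members were lower in TE (ATG13, BECN1, ULK1, ULK2, RB1CC1, ATG3, ATG4C, ATG5 and UVRAG), against 21.9% of all genes. In the other direction 10 were called, against 21.9%, namely ATG14, ATG16L1, ATG2A, ATG4D, GABARAP, LAMP1, LAMP2, NBR1, SQSTM1 and TFEB. The call of TFEB was lost, and 9 were left, when the reads of its 2 entries were summed. By z-score in passage 3, ULK2 and ATG13 were past −1.5 and 0 members past 1.5, against 6.48% and 4.68% of all genes. With the RFs of passage 4 these 2 had z-scores of −0.57 and −1.04 and no longer passed (6.78% of all genes were past −1.5 and 4.79% past 1.5), and the only member past a threshold was TFEB (2.68), whose value rests on the exchanged entries and was 0.80 for its longer entry. LAMP1 (1.28), SQSTM1 (1.12) and LAMP2 (1.09) had high z-scores in passage 3 that did not pass.

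Members that were lower and members that were higher differed in the annotated leader of their mRNA, as did all genes. The 5′ untranslated region (5′ UTR) of the transcript chosen for each gene (GENCODE version 44 on GRCh37) had a median length of 187 nt over 35 members and 134 nt over 9121 genes. It was 329 nt for the 12 members lower with the block and 103 nt for the 10 higher, beside 252 nt and 63.0 nt for all genes called so. ULK2 (519 nt), RB1CC1 (527 nt), ATG13 (407 nt) and ULK1 (380 nt) have long 5′ UTRs, while those of ATG14 (8 nt), ATG12 (13 nt) and SQSTM1 (32 nt) are among the shortest of the set. An ATG lay in the 5′ UTR of 12 of 12 lower members and 2 of 10 higher members (ATG16L1 and PIK3C3), against 59.6% and 16% of all genes called lower and higher. Spearman's rho between 5′ UTR length and log2 RF change was −0.60 over 35 members and −0.59 over 9121 genes. PIK3R4 (558 nt) and ATG7 (399 nt, 8 upstream ATGs) have long 5′ UTRs and log2 changes of −0.27 and −0.18 that did not pass (−0.39 to −0.15 and −0.28 to −0.05 over left-out libraries), and ATG4A was lower with the block with a 5′ UTR of 49 nt.

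**Figure D4:**
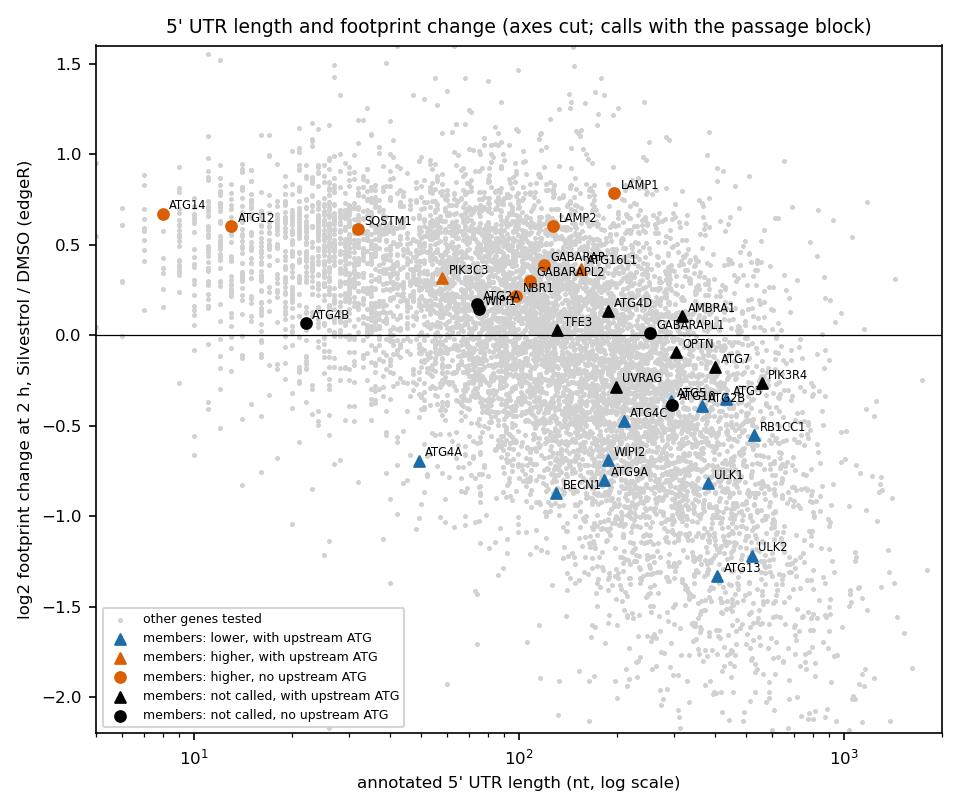
Annotated 5′ UTR length (x axis, log scale, nt) against the log2 footprint change at 2 h of Silvestrol (y axis, edgeR) for all genes tested (grey) and 34 members, coloured by their call with the block, with triangles for members that hold an ATG in the 5′ UTR. ATG13 and ULK2 lie at the lower right and ATG14, ATG12 and SQSTM1 at the upper left.

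With INK128 the RF ratios of the 4 genes of the ULK complex were above 0, as were those of 54.3% of all genes. These values are FPKM (fragments scaled to transcript length and library total) of 1 library per arm, with no read counts, so their depth is unknown and they are given without a test. RFs of ULK2 were 1.00 FPKM with DMSO and 1.73 with INK128, a log2 ratio of 0.78 that was the highest of the members. RB1CC1 had 2.92 and 4.47 FPKM (0.62), ATG13 had 4.21 and 5.51 FPKM (0.39) and ULK1 had 2.33 and 2.76 FPKM (0.25). None of the 4 was past 1, and ULK1, ULK2 and RB1CC1 are below the minimum total RNA used for the z-score. With Silvestrol these 4 were lower with the block. SQSTM1 had 167 and 237 FPKM (0.50), LAMP1 had 69.2 and 90.3 FPKM (0.38) and LAMP2 had 51.4 and 66.0 FPKM (0.36), the direction they took with Silvestrol. BECN1 had 18.2 and 22.2 FPKM (0.28), WIPI2 had 9.49 and 10.5 FPKM (0.15), and all 5 membrane genes had ratios above 0. Of the ATG8 genes GABARAP, whose higher call with the block under Silvestrol was lost with the counted length, had 221 and 194 FPKM (−0.18). MAP1LC3B, readable here, had 21.6 and 23.9 FPKM (0.14), and GABARAPL1 and GABARAPL2 had ratios of −0.10 and 0.21. The lowest ratio was that of TFEB, with 2.63 and 1.77 FPKM (−0.57), and the conjugation genes ran from −0.25 (ATG16L1) to 0.18 (ATG4D).

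Of the 36 members 23 had an RF ratio above 0, against 54.3% of all genes, and 0 were past 1 in either direction, against 1.62% of all genes lower and 1.81% higher. At the minimum FPKM used for the z-score, which 21 members and 7102 genes met, 1.96% of all genes were past −1 and 1.69% past 1. Total RNA was lower for all 36 members (−1.72 for AMBRA1 to −0.24 for ATG4C), but so it was for the table as a whole, with a median log2 ratio of −1.17, and 13 of the 21 members were past −1 against 73.8% of all genes, and 0 were past 1 against 0.0563%. After subtracting the median, 0 of the 21 members were past 1 in either direction, against 385 of 7102 genes. By TE z-score 0 of 21 members passed −1.5 or 1.5, against 5.58% and 1.75% of all genes. Without the minimum all 36 had a z-score, and ATG4C alone passed (−1.59), against 5.61% of all genes lower and 3.72% higher, on total RNA of 0.091 and 0.077 FPKM. As a check of the drug, the elongation factors EEF2 and EEF1A1, whose mRNAs carry mTOR-sensitive leaders, had RF log2 ratios of −1.37 and −1.44 and z-scores of −2.29 and −2.37. For Silvestrol, RFs of CCND1 fell by 1.31 on the log2 scale (edgeR adjusted p = 0.020). The authors called this gene sensitive to Silvestrol from the same libraries and allow that the effect could be indirect. Its fall is thus no independent check of the drug.

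**Figure D5:**
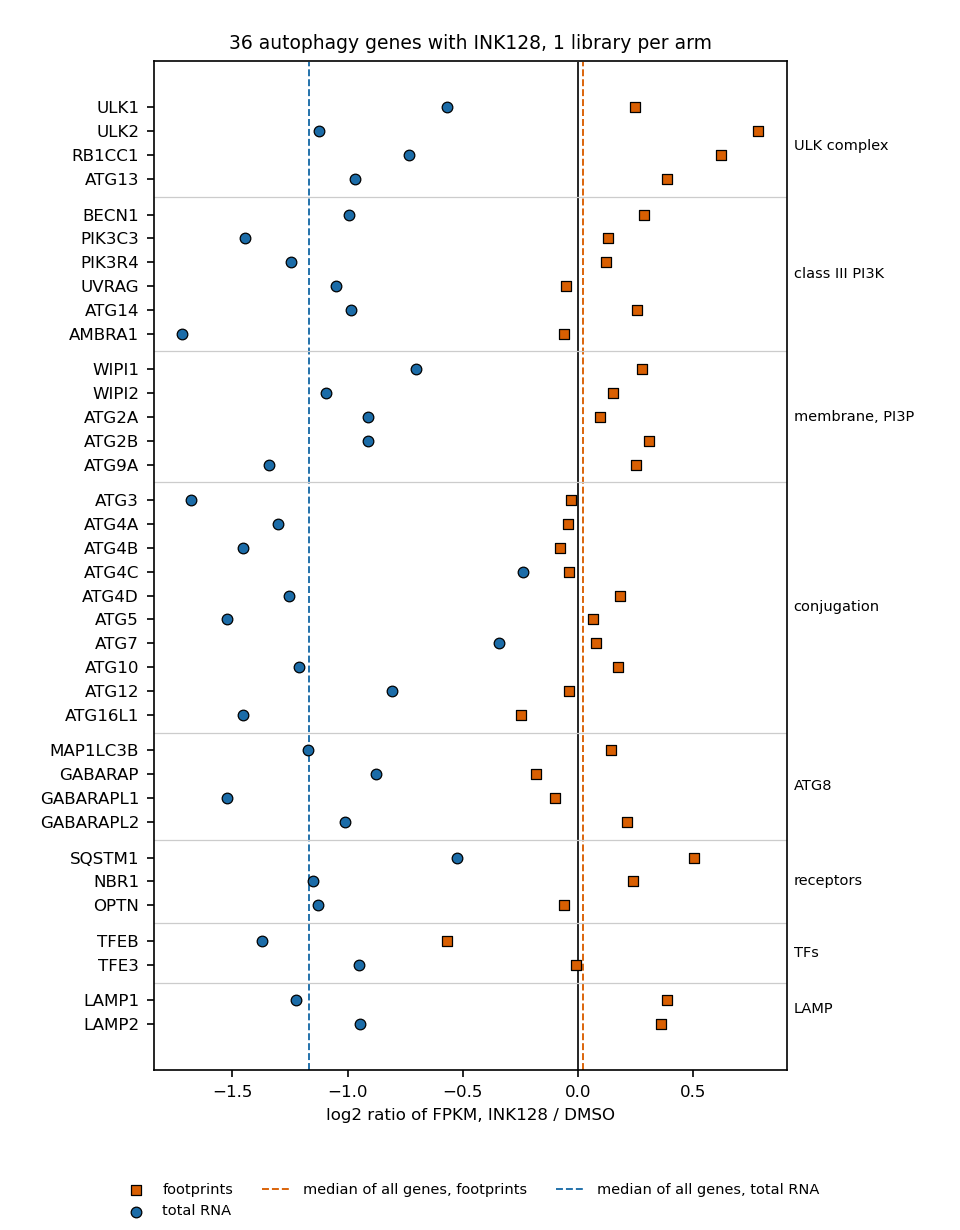
Log2 ratio of FPKM (INK128 over DMSO, x axis) for the 36 members in rows grouped by role, with 1 square for footprints and 1 circle for total RNA. Dashed lines mark the medians of all genes, −1.17 for total RNA and 0.02 for footprints, and the 4 genes of the ULK complex lie to the right of the footprint median.

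Genes around the members in the pathway were read from 6 further lists. Of all genes 7.49% were lower and 2.06% higher without the block, and 28.0% and 24.7% with it, for comparison with each count. Of 41 lysosomal hydrolases and cofactors tested with Silvestrol, 0 were called without the block, and 1 was lower and 22 were higher with it, against the shares of all genes given above, with a median log2 RF change of 0.37 and a median 5′ UTR of 45.0 nt. Their largest values were those of IDUA, which degrades glycosaminoglycans (1.08 ± 0.53 SE, on 0.764 and 1.42 RPKM under DMSO, with a log2 ratio of −0.38 at 1 h), and the protease CTSD (0.89 ± 0.59 SE), with 257 and 829 RPKM under DMSO and 564 and 1280 RPKM under Silvestrol in passages 3 and 4. Among 16 V-ATPase subunits, which acidify the lysosome, ATP6V1C1 (−0.80) and ATP6V1D (−0.62) were lower without the block (edgeR adjusted p = 0.035 and 0.049), and 2 were lower and 7 higher with it. Of 22 other autophagy genes the GTPase RAB7A was lower without the block, from 563 and 504 RPKM to 236 and 206 RPKM (−1.14 ± 0.16 SE, edgeR adjusted p = 0.025), and 7 were lower and 2 higher with it. Of 12 genes that dock mTORC1 at the lysosome, FLCN was lower without the block (−0.93, edgeR adjusted p = 0.038), and 4 were lower and 0 higher with it. Of 8 HOPS and VPS-C subunits, which tether membranes for fusion, VPS11 was higher without the block (0.70, edgeR adjusted p = 0.037), and 3 were lower and 3 higher with it. Of 17 other lysosomal membrane proteins 0 were called without the block, and 4 were lower and 4 higher with it, with the amino acid sensor SLC38A9 (−1.10 ± 0.40 SE) and the tetraspanin CD63 (−0.87 ± 0.51 SE) at the largest values.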

How the data were processed

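The authors removed linker and rRNA sequences, aligned reads to hg19 and canonical transcripts with Bowtie (the submitters' notes also name Bowtie2 and CASAVA 1.8.1), and deposited counts of uniquely mapped reads. The authors also deposited RPKM values, made without positions that carry ambiguous reads. For INK128 the authors deposited FPKM values without counts, and the program is not given in the sources used here. Deposited columns of TE, its change and scores were not used. Repeated lines were dropped, and for 546 symbols with several entries that of highest mean RF RPKM was kept. Of the genes tested 137 have several entries, and in 46 of 116 with a value the counted length of the kept entry differed by over 1.5-fold between the DMSO libraries of both passages (39.7%, against 2.3% of symbols with 1 entry), so values over all genes carry such changes too. TFEB is the only member with several entries.

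Genes tested had RPKM above 0 in passage 3 and mean RPKM of at least 1 (RFs) and 0.3 (mRNA). RF counts of 2 DMSO and 2 Silvestrol libraries, and the interaction of assay and treatment over 6 libraries, were fitted with edgeR 4.0.16 (TMM, quasi-likelihood) in R 4.3.3, with DESeq2 1.42.0 as an alternative. P-values without the block measure the spread between 2 passages. Each SE was not fitted but derived from that fit, as the size of the log2 change over the square root of its F statistic. With the block 1 residual degree of freedom is left, and in the RF fit the prior degrees of freedom were infinite, so that these p-values rest on a spread pooled over genes. TE z-scores use log2 ratios of RPKM or FPKM without pseudocount and thresholds of −1.5 and 1.5. In simulated counts of 10594 genes, 200 of which had a log2 change of 2, the test of RFs called 175 of the 200 and 4 others, and that of TE 71 and 1. This change is larger than any RF change of the members (−1.33 to 0.79), and the simulated libraries shared no passage effect. The simulation thus does not give the share of changes like theirs that would be called. The labels give the passage number of each culture, and deviations of the passages correlated between treatments (r = 0.728 over 10594 genes), so passage was used as a block beside the fit without it. The counted length is reads over RPKM and library total, so it is a derived value with a scale of its own in each library and not an annotated length.

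Members and lists were chosen with earlier results of these data known. All members were accounted for, with values in every RF library for those past the RF threshold in either fit with a log2 change of at least 0.5 in size, those past a z-score of 1.5 in size, and the highest of each role. From other lists the 3 largest changes past the threshold were named, or the 2 largest values if none passed. Python 3.11.15, pandas 2.3.3, numpy 2.4.6 and matplotlib 3.10.9 were used. Alternatives covered tools, scaling, filters, pseudocounts, centring, the block, counted length and left-out libraries, and summing entries of a symbol was added after the data were seen.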

Additional observations from a re-analysis of the deposited data

Results flagged for a closer look

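OPTN, a receptor for ubiquitinated cargo, had an RF log2 ratio of 0.0156 at 1 h of Silvestrol, against −0.0868 in passage 3 and −0.349 in passage 4 at 2 h. It was noted because the sign at 1 h is opposite to that in both passages at 2 h. These ratios are not centred, and the medians of all genes were −0.18, −0.17 and −0.15 in the same order. Relative to those medians OPTN was higher at 1 h and in passage 3 and lower in passage 4, so the opposite sign in passage 3 depends on the scaling. The difference was not tested, and the value at 1 h comes from 1 library per treatment.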

How the results depend on the processing

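The number of members called with Silvestrol depends on whether passage is modelled. RF calls (2 lower, 0 higher, 1012 of all genes) became 12, 10 and 5579 with the passage as a replicate block, 12, 8 and 5448 with the counted length besides, and 12, 10 and 5588 with entries of a symbol summed in that fit. DESeq2 called 1555 of all genes. Leaving out 1 library gave 0 to 3 members lower, 0 to 1 higher and 0 to 1115 genes, with 0 genes without either Silvestrol library, and BECN1 was not called without DMSO replicate 1 (passage 3). In TE, 0 members in either direction and 2 of all genes became 9 lower, 10 higher and 4639 with the replicate block, 9, 10 and 4683 with the counted length besides, and 9, 9 and 4527 with summed entries in that fit. For all genes TE calls were 876 with DESeq2, 193 without a filter, and 0 with DESeq2's size factors, a minimum RPKM of 5, the counted length or summed entries. Leaving out 1 library gave 0 to 1 members in each direction and 0 to 1199 genes. By z-score 2 members became 1 with the RFs of passage 4 (TFEB, by its exchanged entries) and 0 without a minimum.

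At 1 h, 2 members became 1 with a pseudocount of 0.5, and 884 genes became 546 with TMM-scaled counts, 580 after subtracting the median and 1486 without a minimum. For mRNA 697 genes became 1112 without a minimum. With INK128, 0 members past the z-score became 1 with a pseudocount, 1 without a minimum and 3 with the median and MAD, and 520 genes became 56 at a minimum FPKM of 5, 1224 without a minimum and 1357 with the median and MAD. For RFs 259 genes became 451 without a minimum. For total RNA 13 members and 5243 genes became 0 and 385 after subtracting the median, 1 and 1056 with a pseudocount, and 21 and 9021 without a minimum, and the sign turned after subtracting the median for WIPI2 (0.0725), GABARAPL2 (0.158), NBR1 (0.0184) and OPTN (0.0419).

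RF changes that turned sign were those of members that had not passed. GABARAPL1 turned to −0.0040 without a filter, −0.0185 at a minimum of 5, −0.36 with the counted length and −0.38 with the block besides. Ranges over left-out libraries were −0.12 to 0.14 for GABARAPL1, −0.0539 to 0.29 for AMBRA1, −0.19 to 0.33 for ATG4B, −0.0567 to 0.38 for ATG4D, −0.27 to 0.10 for OPTN, −1.52 to 2.10 for TFEB and −0.22 to 0.34 for TFE3. In TE, WIPI1 turned to −0.00048 without a filter and −0.0665 at a minimum of 5, with a range of −0.0349 to 0.0178, ATG7 ranged from −0.036 to 0.21, and ATG12 turned to 0.0321 with DESeq2 and 0.033 with its size factors, with a range of −0.0656 to 0.0159. The cause of these changes was not tested. RFs at 2 h have 2 libraries per treatment and all else 1, and ULK1, ULK2, ATG4A, ATG4C, ATG10, GABARAPL1 and TFEB hold under 40 reads in the Silvestrol library of passage 4, which limits their precision.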

Other observations

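Genes around the members that are not members had RF ratios with INK128 that were mostly above 0, against 54.3% of all 13121 genes in that table. This was so for 34 of 42 lysosomal hydrolases and cofactors, 13 of 16 V-ATPase subunits, 10 of 13 genes that dock mTORC1 at the lysosome, 7 of 8 HOPS and VPS-C subunits, 17 of 26 other autophagy genes and 11 of 18 other lysosomal membrane proteins. Their median log2 ratios lay between 0.08 (V-ATPase) and 0.17 (mTORC1 docking), beside 0.02 for all genes. Each value comes from 1 library per arm, and these counts carry no test.

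The CLEAR element, CACGTG with GT before and AC after it, was found in the promoters of 2 of 27 hydrolase genes, 1 of 11 V-ATPase genes, 1 of 11 that dock mTORC1 and 1 of 15 of other lysosomal membrane proteins, and in 0 of 6 HOPS and VPS-C and 0 of 21 other autophagy genes, against 0.421% of all promoters. Its core was in 9 of 27, 3 of 11, 5 of 11, 3 of 15, 4 of 6 and 3 of 21 in the same order, against 8.77% of all promoters. The members, most of which act before the lysosome, had it in 3 of 32.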
